A study of Mus musculus with 4 samples.

Results

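The miR-376 family consists of 6 mature miRNAs, the 5p and 3p arms of the hairpins miR-376a, miR-376b and miR-376c, and was taken by name from the 1907 mature miRNAs counted in mouse liver. Small RNA was sequenced from livers of 15-week-old C57BL/6 mice in 2 groups of 2 libraries. Control mice are labelled as control only, and no label says what, if anything, they were injected with. Treated mice received thioacetamide (TAA), a liver toxin used to produce fibrosis in rodents, at 200 mg/kg by intraperitoneal injection 3 times a week for 10 weeks. The labels number the libraries and the design text calls them biological replicates, but neither identifies animals, so p-values measure the spread between these libraries, which may be technical.

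The family belongs to the imprinted Dlk1-Dio3 region, where the maternal chromosome is the source of many non-coding RNAs, known mainly from embryonic tissue, placenta and brain. Its hairpins are cut by Drosha and Dicer into a 5p and a 3p strand, and the strand held by an Argonaute protein pairs with target mRNAs through its seed, bases 2 to 8. The miR-376 hairpins are tandem paralogs, and their transcripts are known substrates of adenosine-to-inosine editing by ADAR enzymes, which can alter the seed. Read counts by name do not show which base a read carried.

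The sequences are shown because some members differ by few bases and because the seed sets what each can pair with. Mature sequences were matched by name in a RefSeq table of GRCm38.p6 for 5 of the 6 members. They are written 5′ to 3′ with the seed in capitals.
mmu-miR-376a-3p: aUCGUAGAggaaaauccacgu
mmu-miR-376b-3p: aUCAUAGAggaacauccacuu
mmu-miR-376a-5p: gGUAGAUUcuccuucuaugagu
mmu-miR-376b-5p: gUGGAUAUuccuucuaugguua
mmu-miR-376c-5p: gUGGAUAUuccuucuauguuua
The 3p arms of miR-376a and miR-376b differed at 3 positions, G4A, A13C and G20U, counted from 1 at the 5′ end with the base of miR-376a-3p first. The first of these lies in the seed, so these 3p arms have different seeds. The 5p arms of miR-376b and miR-376c shared their seed and differed only by G19U, with the base of miR-376b-5p first. miR-376a-5p had another seed and was 7 edits away from each of these 5p arms. No other entry among the 1679 mature miRNAs of the table shared the seed of any of the 5 members. The nearest sequence outside the family was 7 or 8 edits away from each of them.

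The hairpins lie on the plus strand of chromosome 12 (GRCm38) in the order miR-376c, miR-376b, miR-376a. Mir376c occupies chr12:109722718-109722803, Mir376b chr12:109723458-109723539 and Mir376a chr12:109723781-109723848, a stretch of 1131 bases in all. Mir376c and Mir376b are 654 bases apart, and Mir376b and Mir376a 241 bases. In the GENCODE annotation none of the 3 hairpins lies within another gene on either strand. Apart from miRNA genes, the nearest annotated genes on the same strand are the long non-coding RNA B830012L14Rik, which ends 20.9 kb before Mir376b, and Mirg, a long non-coding host of miRNAs, which begins 6.22 kb after it. The hairpins of miR-376b and miR-376a are shown with both mature arms in capitals, since the use of these arms is compared further on.
Mir376b: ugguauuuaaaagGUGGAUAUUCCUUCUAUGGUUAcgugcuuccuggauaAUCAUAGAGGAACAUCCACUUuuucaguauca
Mir376a: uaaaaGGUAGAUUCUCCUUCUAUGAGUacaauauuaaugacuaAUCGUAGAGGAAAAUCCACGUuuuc

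The libraries held 42609845 to 48878003 miRNA counts. Levels are given as CPM, with library sizes adjusted by TMM factors, and before that adjustment 1 CPM was 42.6 to 48.9 reads. The hepatocyte miRNAs miR-122-5p, miR-122-3p, miR-192-5p and miR-148a-3p, markers of the labelled tissue, were abundant in all 4 libraries. They summed to 341043 and 371401 CPM in the controls, against 309966 and 320181 CPM after TAA. Of these 4, 0 were called as higher or lower after TAA. Across all miRNAs, edgeR's quasi-likelihood test (Benjamini-Hochberg adjusted p under 0.05) tested 644 and called 107, of which 90 were higher and 17 lower after TAA. With upper-quartile factors the split was 83 higher and 32 lower (72.2% higher against 84.1%). The number called was 54 without TAA 1 and 49 without TAA 2.

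The whole family was rare in control liver and more abundant after TAA. Its 6 rows held 98 reads in control 1 and 139 in control 2, against 2269 in TAA 1 and 1829 in TAA 2. Both TAA libraries lay far above both controls, and the libraries within a group differed by less than the groups did. The summed level was 2.78 ± 0.662 CPM in the controls, against 42.8 ± 10.1 CPM after TAA (mean ± SD, n = 2 libraries each), a 15.4-fold difference, or 3.94 on the log2 scale. An exact two-sided permutation test over libraries gave p = 0.33, the smallest value that 2 libraries against 2 allow. Even after TAA the family made up only 0.00374% to 0.00518% of miRNA counts.

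**Figure D1:**
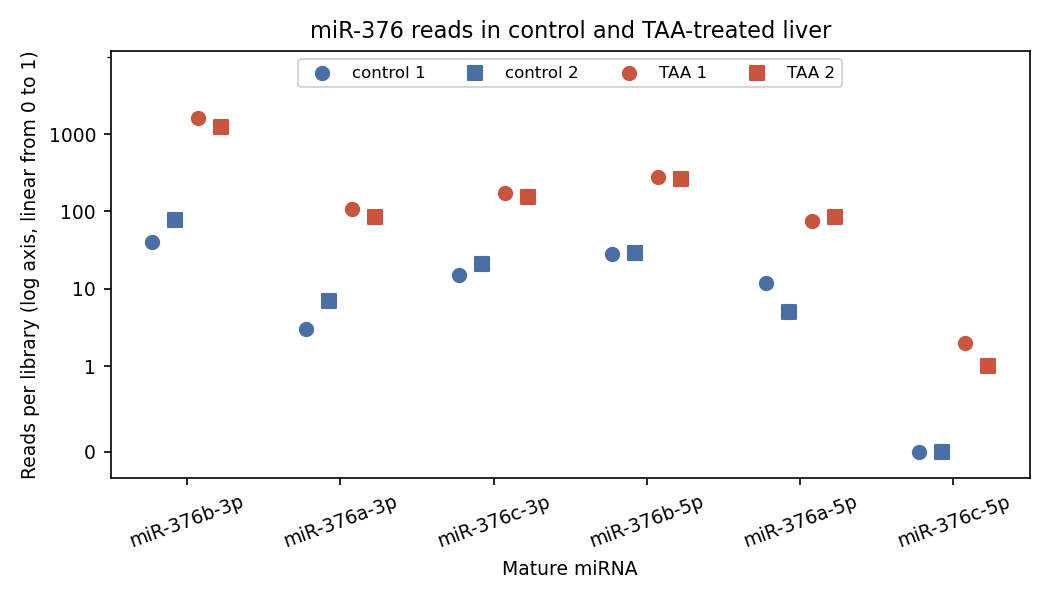
Reads of each miR-376 miRNA in each library, as 1 point per library, with control in blue and TAA in red, on a log axis that is linear from 0 to 1. Both TAA points lie above both control points for every member, while miR-376c-5p has at most 2 reads in any library.

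mmu-miR-376b-3p was the most abundant member in every library. It had 40 and 77 reads in controls 1 and 2, against 1638 and 1237 in TAA 1 and TAA 2, or 0.945, 1.80, 36.0 and 24.1 CPM in the same order. The groups were far apart, with control 2 above control 1 and TAA 1 above TAA 2. The level rose 21.8-fold, a log2 fold change of 4.45 (SE 0.35) with an edgeR adjusted p of 5.49e-05.

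mmu-miR-376a-3p, the 3p relative whose seed differs at G4A, had 3 and 7 control reads against 106 and 85 after TAA. It was scarce in the controls: the 3 reads of control 1 have a 95% Poisson interval of 0.619 to 8.77 reads. Its mean of 0.117 ± 0.0657 CPM rose 16.6-fold to 1.99 ± 0.477 CPM, which is 4.05 on the log2 scale (SE 0.50, adjusted p = 0.000597 in edgeR). That adjusted p was 0.0483 without TAA 1 and 0.0211 without TAA 2. The log2 fold change was 3.56 without control 1 and 4.75 without control 2.

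mmu-miR-376c-3p, from the first of the 3 hairpins on the plus strand, had 15 and 21 control reads, and TAA 1 and TAA 2 had 171 and 155. The libraries within each group were close to each other and the groups did not overlap. Its mean rose 7.97-fold, from 0.423 ± 0.0968 CPM in the controls to 3.39 ± 0.524 CPM after TAA, which is 2.99 on the log2 scale (SE 0.31, adjusted p = 0.000220 in edgeR).

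The 5p arms of miR-376b and miR-376a rose by similar factors. mmu-miR-376b-5p had 28 and 29 control reads against 277 and 266 after TAA, so its control libraries were almost equal. Its mean of 0.670 ± 0.0120 CPM rose 8.38-fold to 5.64 ± 0.643 CPM, which is 3.07 on the log2 scale (SE 0.25, adjusted p = 5.67e-05 in edgeR). mmu-miR-376a-5p had 12 and 5 control reads against 75 and 85 after TAA. Unlike the other 4 members tested, it had its higher control value in control 1 and its higher TAA value in TAA 2. It rose 8.17-fold, which is 3.03 on the log2 scale (SE 0.47, adjusted p = 0.00266 in edgeR). Its call needed both TAA libraries: without TAA 1 the adjusted p was 0.0923 and without TAA 2 it was 0.0767, at a log2 fold change of 3.03 in both. The log2 fold change itself moved with the controls, to 3.77 without control 1 and 2.53 without control 2.

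mmu-miR-376c-5p had 0 reads in both controls, 2 in TAA 1 and 1 in TAA 2. A count of 0 allows up to 3 reads, or 0.0704 and 0.0649 CPM by library size in controls 1 and 2, so that no difference between the groups was detectable at this depth and no fold is given. Its sequence differs from miR-376b-5p by the single substitution G19U, and the sources used here do not give how reads close to both sequences were assigned. Its opposite arm, miR-376c-3p, had 171 and 155 reads in the same TAA libraries.

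Of the 6 members, 5 passed the filter on low counts, and these 5 were called as higher, where 14.0% of all tested miRNAs were called as higher. Both TAA libraries lay above both controls in these 5, as they did in 29.7% of all tested miRNAs. miR-376b-3p, miR-376b-5p and miR-376c-3p reached the filter's minimum in the controls as well. miR-376a-3p reached it in neither control, so it passed only through the TAA libraries and had to differ to be tested, and miR-376a-5p reached it in 1 control. The count over the members is therefore a description. In bulk tissue, more cells that make these miRNAs and more of them per cell cannot be told apart.

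The order of the members was much the same in both groups. In the controls it ran miR-376b-3p, miR-376b-5p, miR-376c-3p, miR-376a-5p, miR-376a-3p, miR-376c-5p in CPM, and the control values of miR-376a-5p (0.117 to 0.283 CPM) and miR-376a-3p (0.0709 to 0.164 CPM) overlapped. After TAA, miR-376a-3p, at 1.66 to 2.33 CPM, and miR-376a-5p, at 1.65 to 1.66 CPM, changed places by their means, but they had equal reads in TAA 2, 85 each. The other neighbours in the order did not overlap in either group. The 5 members with a sequence entry are 21 or 22 bases long, and miR-376c-3p has no entry. Whether length or other differences in sequence affect the counts was not tested.

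The make-up of the family differed between the groups, with miR-376b-3p taking more of it after TAA. miR-376b-3p was 40.8% of the family's reads in control 1 (95% exact interval 31.0% to 51.2%) and 55.4% in control 2 (46.7% to 63.8%). In TAA 1 it was 72.2% (70.3% to 74.0%) and in TAA 2 67.6% (65.4% to 69.8%). The intervals of the TAA libraries lay above those of the controls, but they cover counting error only, since reads without molecular identifiers are not independent molecules. miR-376c-3p was 15.3% and 15.1% of the family in the controls, against 7.54% and 8.47% after TAA.

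Ratios of paralogs within a library do not depend on the scaling. The ratio of miR-376b-3p to miR-376c-3p was 2.67 and 3.67 in the controls, against 9.58 and 7.98 after TAA, higher by 1.48 on the log2 scale. The ratio of miR-376b-3p to miR-376a-3p was 13.3 and 11.0 in the controls, against 15.5 and 14.6 after TAA, higher by 0.31. Both ratios were higher in each TAA library than in each control, and the first moved more. The second rests on 3 and 7 reads of miR-376a-3p in controls 1 and 2, so its shift cannot be told from counting error. On the same few reads, the ratio of miR-376c-3p to miR-376a-3p was 5.0 and 3.0 in the controls. After TAA it was 1.61 and 1.82, a log2 difference of -1.18. Among the 5p arms, the ratio of miR-376b-5p to miR-376a-5p was 2.33 and 5.8 in the controls, against 3.69 and 3.13 after TAA, so the groups overlapped. Of the 4 ratios of paralogs and 2 of arms computed this way, none could pass an exact permutation test over libraries, whose smallest two-sided p is 0.33.

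**Figure D2:**
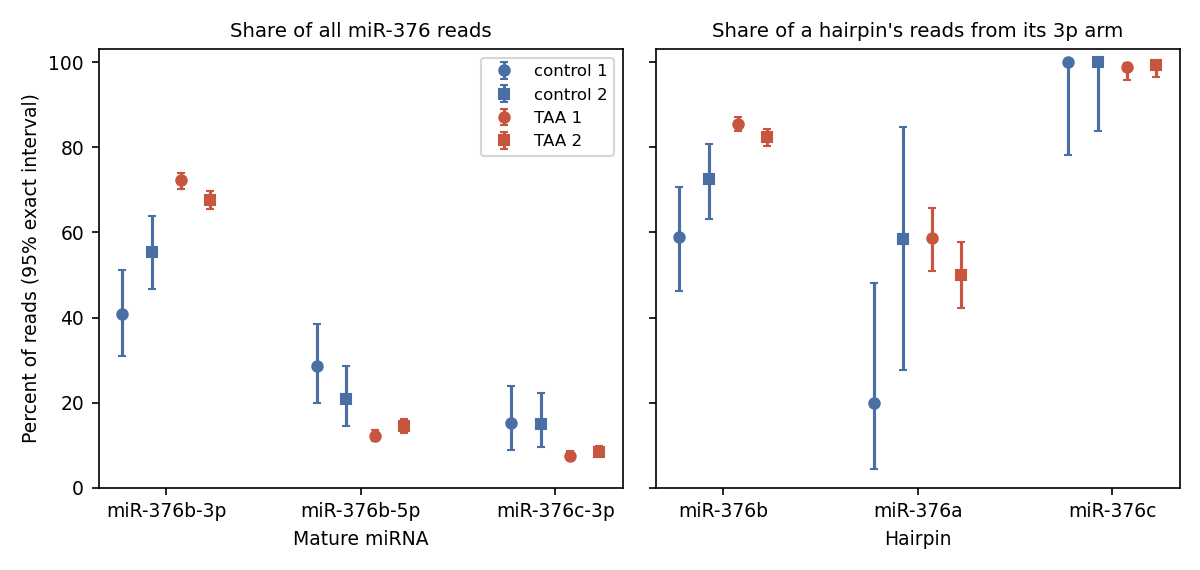
Percent of reads in each library, with 95% exact intervals for counting error, as the share of all miR-376 reads held by 3 members (left) and the share of each hairpin's reads that come from its 3p arm (right). The share of miR-376b-3p lies at 40.8% and 55.4% in the controls and at 72.2% and 67.6% in the TAA libraries.

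The arms of a hairpin come from the same precursor, so their ratio shows whether they changed alike. In the miR-376b hairpin, the 3p arm held 58.8% (95% exact interval 46.2% to 70.6%) and 72.6% (63.1% to 80.9%) of reads in the controls. In TAA 1 it held 85.5% (83.9% to 87.1%) and in TAA 2 82.3% (80.3% to 84.2%). The 3p arm thus had more reads than the 5p arm in all 4 libraries, though the interval of control 1 included an even split. Both TAA libraries lay above both controls, an order that is no test with 2 libraries against 2. The log2 ratio of 5p to 3p was 1.44 lower after TAA (log2 difference -1.44, SE 0.34), so that the ratio of 3p to 5p was 2.71 times as high. This difference did not pass limma's test over 150 hairpins (unadjusted p = 0.00622, adjusted p = 0.668), although its unadjusted p was the smallest of the 150.

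In the miR-376a hairpin the 3p arm held 20% and 58.3% of reads in the controls, from 15 and 12 reads, against 58.6% and 50% after TAA. The groups overlapped, and the log2 ratio of 5p to 3p differed by -0.94 (SE 0.72, limma adjusted p = 0.985). In the miR-376c hairpin the 3p arm held all 15 and 21 reads of the controls and 98.8% and 99.4% of reads after TAA, and its 5p arm was too rare to be tested. After TAA, miR-376c reads were thus nearly all from the 3p arm, while those of miR-376a were about evenly divided.

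Limma called 0 of the 150 hairpins (0%), with 5 at an unadjusted p under 0.05. Of these 5, 2 were among the 16 other Dlk1-Dio3 hairpins tested. Leaving out either control changed the number called. Without control 1 the miR-376b hairpin passed (log2 difference -0.995, limma adjusted p = 0.0392), as 1 of 11 hairpins called, and the miR-376a difference turned to 0.20. Without control 2, 13 hairpins were called, with miR-376b at -1.88 (limma adjusted p = 3.87e-09) and miR-376a at -2.08 (limma adjusted p = 1.04e-10). In these fits the lone control is assumed to vary like the other group.

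The tested members changed by 2.99 to 4.45 on the log2 scale, within the 1.51 to 5.24 of the region's other tested miRNAs with control reads. The list of other Dlk1-Dio3 miRNAs had 107 rows, of which 63 were tested. Of these 63, 57 were called as higher, 0 as lower and 6 were not called, where 14.0% of all tested miRNAs were called as higher. Some of the 63, such as miR-494-3p with 6 reads over both controls, passed the filter only through the TAA libraries. These had to differ to be tested, so the count, the median and the ranks are a description. The median log2 fold change of the 63 was 3.58, against -0.0042 over all tested miRNAs. It was 3.56 with the miRNA that had no control reads set at its lower bound. Without TAA 1, 37 were called, and without TAA 2, 40. The most abundant of them, miR-411-5p, had 2736 and 3310 control reads against 43166 and 38559 after TAA. Among the 67 miRNAs of the region with reads in the controls, members included, miR-376b-3p ranked 5 and miR-376a-3p 9 by log2 fold change. miR-376b-5p, miR-376a-5p and miR-376c-3p ranked 47, 49 and 51, in the lower part of the same order. The family held 1.14% and 1.33% of the region's reads in the controls, against 1.63% and 1.53% after TAA.

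**Figure D3:**
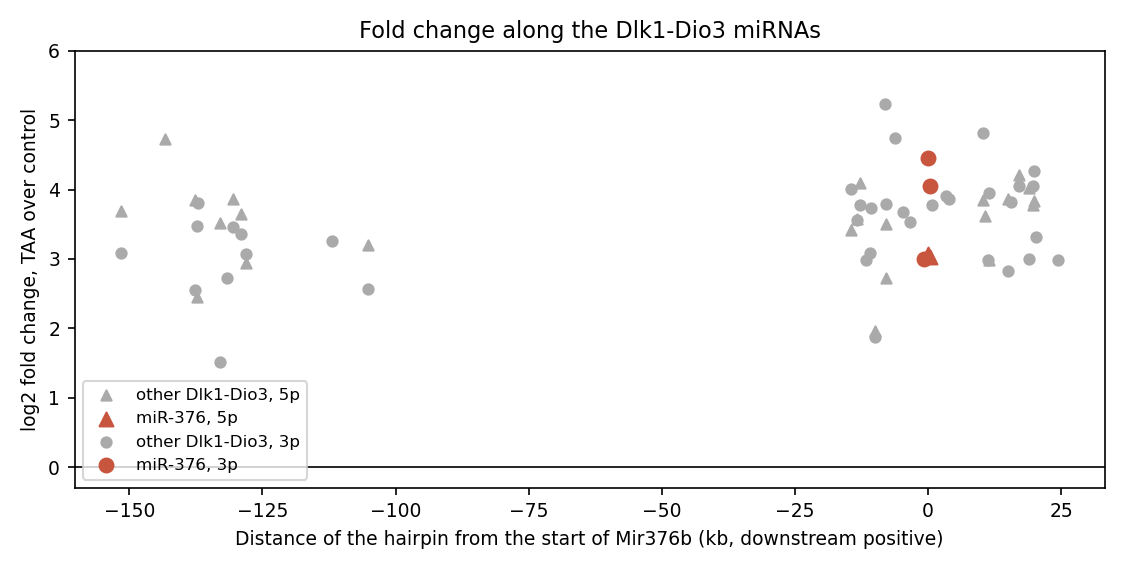
The log2 fold change of 65 Dlk1-Dio3 miRNAs with control reads and a hairpin entry against the distance of the hairpin from the start of Mir376b in kb, with miR-376 in red, 3p arms as circles and 5p arms as triangles. The 5 miR-376 points lie between 2.99 and 4.45 at the same place in the region, within the spread of the other miRNAs.

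Of the hairpins next to the family, 4 had a 3p arm that rose. Upstream, miR-495-3p had 14 and 15 control reads against 261 and 158 after TAA, a log2 fold change of 3.68 (SE 0.39). miR-667-3p, also upstream, had 14 and 24 control reads against 272 and 225, a log2 fold change of 3.53 (SE 0.33). In TAA-treated liver these upstream miRNAs had means between those of miR-376c-3p and miR-376b-5p. Downstream, miR-300-3p had 205 and 345 control reads against 4635 and 3831, a log2 fold change of 3.77 (SE 0.29). miR-381-3p, the next one downstream, had 220 and 305 control reads against 4784 and 4089, a log2 fold change of 3.91 (SE 0.24). The downstream miRNAs were more abundant than any miR-376 member in each library. All 4 passed edgeR's test with adjusted p-values from 2.01e-05 to 0.000239, and the opposite arms of their hairpins had at most 8 reads in any library. miR-654, whose hairpin lies between Mir376c and Mir376b at chr12:109723218-109723301, is listed at 0 for both arms in all 4 libraries, which allows up to 3 reads in each.

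The 5 tested miRNAs whose pattern over the 4 libraries was most like that of the family sum all came from the Dlk1-Dio3 list. Likeness was the Euclidean distance between log2 CPM values, each centred on its own mean, over 639 miRNAs outside the family, with a median distance of 3.99. A small count was added to these miRNAs before the log2, but not to the family sum, which draws in the differences of rare miRNAs most. miR-381-3p was the nearest at 0.0773, and its hairpin starts 3.36 kb after that of miR-376b. It was followed by miR-409-3p at 0.139, miR-485-3p at 0.144, miR-337-5p at 0.158 and miR-541-5p at 0.184. miR-337-5p lies 138 kb upstream of miR-376b, and the other 3 lie 11.4 to 19.7 kb downstream. All 5 shared with the family sum a higher value in control 2 than in control 1 and in TAA 1 than in TAA 2. Since the 4 libraries hold 2 groups, these distances describe the libraries and carry no test.

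**Figure D4:**
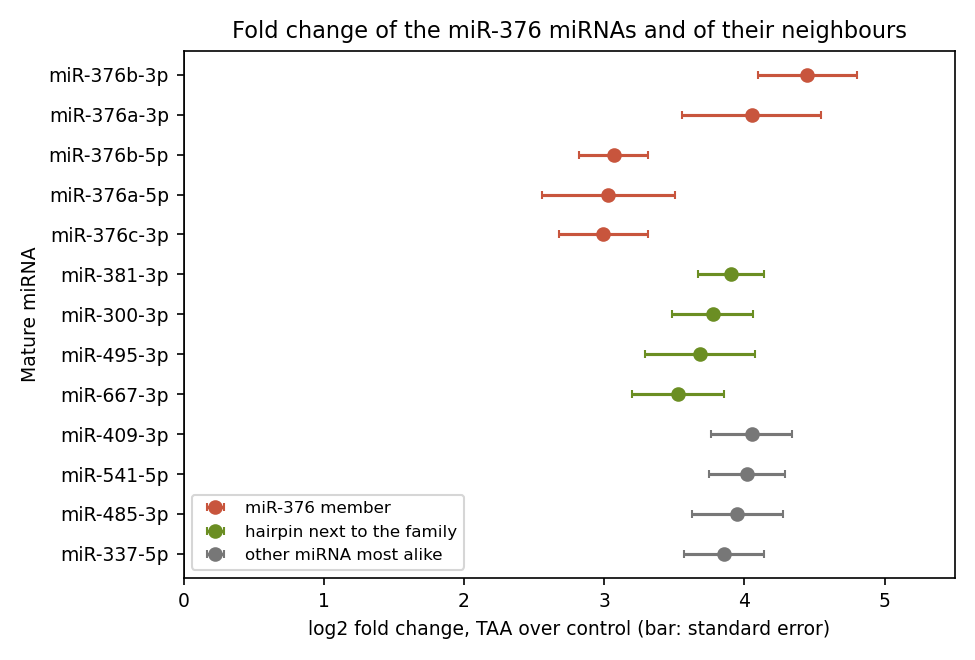
The log2 fold change of TAA over control with its standard error for the 5 tested miR-376 members, the tested arms of the hairpins next to them, and the other miRNAs most like the family sum. miR-376b-3p and miR-376a-3p, at 4.45 and 4.05, lie above the neighbours' values of 3.53 to 3.91, and the other 3 members, at 2.99 to 3.07, lie below them. The bar of miR-376a-3p (SE 0.50) overlaps the neighbours' values. The miRNAs most like the family sum lie at 3.86 to 4.05, up to the value of miR-376a-3p.

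Markers of other cell types were read in the same libraries. The 3 erythroid miRNAs, miR-451a, which led the list, miR-144-3p and miR-144-5p, were called as higher, but 0 were without TAA 2. Their sums were 79.9 and 38.1 CPM in the controls, against 112 and 448 CPM in TAA 1 and TAA 2. The erythroid sum was above both controls in each TAA library, and the miR-376 sum was 49.9 CPM in TAA 1 and 35.7 CPM in TAA 2. Of the 5 leukocyte miRNAs, of which miR-142a-5p was the most abundant, miR-150-5p and miR-155-5p were called as higher (1 of the list without TAA 1 or without TAA 2, 5 without control 2). The list summed to 874 and 1384 CPM in the controls, against 1850 and 1628 CPM after TAA. Of the 5 stellate and mesenchymal miRNAs, led by miR-143-3p, miR-214-3p was called as higher (0 higher without control 2, TAA 1 or TAA 2, 2 higher without control 1, and 1 lower without control 2). Their sums were 27759 and 28077 CPM in the controls, against 31605 and 23348 CPM after TAA. The part of these cell types in the rise of the miR-376 family was not tested.

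Neural miRNAs, led by miR-128-3p, were read because the region is active in brain. Of the 5, 3 were tested and 0 called, also with any library left out, and they summed to 50.9 and 51.2 CPM in the controls, against 44.2 and 54.7 CPM after TAA. edgeR called 0 of the 2 endothelial miRNAs, led by miR-126a-5p, and 2 of the 5 bile duct epithelial miRNAs, led by miR-200b-3p, as lower, namely miR-141-3p and miR-200c-3p (0 without TAA 1 or without TAA 2, 1 without either control). The sums of the endothelial list lay between 22655 and 29185 CPM, and those of the bile duct list between 333 and 428 CPM. The pancreas list, led by miR-375-3p, stood at 108.9 CPM in control 1 against 8.47 to 10.5 CPM in the other libraries, and the miR-376 sum of control 1 was 2.31 CPM against 3.25 CPM in control 2. Of the 3 pancreas members 2 were tested and 0 called, while all 3 (miR-216a-5p, miR-217-5p and miR-375-3p) were called as lower without control 2. In the muscle list, led by miR-133a-3p, 1 of 3 members was tested and was called, as lower, only without control 1. No cell type list had a member at 0 in all 4 libraries.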

How the data were processed

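The authors deposited raw counts of reads for each mature miRNA, in a file for each library, made with Bowtie, mm10 and HTSeq, per the submitters' processing notes. Per the labels' protocols, RNA came from an miRNeasy kit and libraries from a TruSeq kit for small RNA. The sources used here do not give tool versions, mismatches allowed, the miRNA annotation or the handling of multiply aligned reads, which bears on near-identical members. The 5 summary rows that name no miRNA were left out of library sizes and tests. They held 31.3% to 34.6% of reads, and reads aligned at several places were listed as 0.

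The main test was edgeR 4.0.16 under R 4.3.3 (filterByExpr with a minimum count of 10, TMM factors, quasi-likelihood F test, Benjamini-Hochberg adjustment over 644 miRNAs). Arm ratios, log2 of 5p over 3p counts each plus 0.5, were tested with limma 3.58.1 where both arms averaged at least 20 counts. Tested on simulated data for this comparison, edgeR gave these results: among 623 miRNAs, 93.7% of 4-fold and 64.6% of 2-fold changes were recovered with 6 false calls. Alternatives were other factors and filters, DESeq2 1.42.0, limma-voom, leaving out each library, a replicate block, and removing the other Dlk1-Dio3 miRNAs.

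The members, lists and tests were chosen with earlier results of these data known. All 6 members are named, with the hairpins next to the family, the 5 miRNAs nearest the family sum and the most abundant miRNA of each other list. Other marker miRNAs called in the main test are named after their values were seen. Positions come from GENCODE and RefSeq annotation of GRCm38, the assembly of mm10.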

Additional observations from a re-analysis of the deposited data

How the results depend on the processing

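Directions and calls of miR-376b-3p, miR-376b-5p, miR-376c-3p and miR-376a-3p were the same under every alternative in which they were tested, with log2 fold changes of 4.04 to 4.98, 2.90 to 3.19, 2.76 to 3.24 and 3.56 to 4.75. miR-376a-5p ranged from 2.53 to 3.77 and did not pass without TAA 1 or without TAA 2. The number of members called was 1 with a minimum of 10 CPM in 2 libraries, where miR-376b-3p was the only member tested, and 4 to 5 with a library left out. With that minimum, 41 of 282 miRNAs and 21 Dlk1-Dio3 miRNAs were called. With a library left out, 49 to 131 miRNAs and 37 to 59 Dlk1-Dio3 miRNAs were called. With the other Dlk1-Dio3 miRNAs removed, 17 of 581 miRNAs were called, 5 of them members. Of the family's arm ratios, 1 passed with a pseudocount of 5, where 3 of 150 hairpins were called, and 0 to 2 with a library left out. The miR-376a arm ratio ranged from -2.08 to 0.20 there, positive without control 1. The cause was not tested. The family sum ranged from 3.70 to 4.25 on the log2 scale over all alternatives, and from 3.70 to 4.19 with a library left out. The median change over all miRNAs moved to -0.17 with upper-quartile factors and to 0.12 with library size alone. The replicate block called 110 miRNAs, 5 members and 56 Dlk1-Dio3 miRNAs and changed no call of a member. Across the groups, the labels link libraries by number only. Deviations of same-numbered libraries correlated at -0.05 over 644 miRNAs. With 2 libraries in each group, that value cannot show whether same-numbered libraries shared anything else. Control reads of 3 to 77 per member limit the precision of every fold.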
